A study of Mus musculus with 48 samples.

Results

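The mTOR and S6 kinase genes were examined as 10 of the 38293 genes in the count table. They are Mtor, Rptor, Rictor, Tsc1, Tsc2, Rheb, Rps6kb1, Rps6kb2, Eif4ebp1 and Eif4ebp2, taken by gene symbol as the core of the pathway that phosphorylates ribosomal protein S6, and all 10 were found once. Phosphorylated S6 is also the handle of the experiment, because ribosomes carrying it were pulled down from brain homogenates and their RNA was sequenced. The study is about suppression of feeding by agonists of the GLP-1 and CCK receptors given together. RNA was sequenced in 48 libraries from 2 brain regions, 2 kinds of RNA and 4 treatments, with 3 libraries in each of the 16 groups.

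All groups came from male C57/Bl6 mice, 9 weeks old, fasted for 6 h and injected intraperitoneally with 10 µL per g of body weight. Mice received AC3174 at 1 µg/kg (a GLP-1 receptor agonist), AC170222 (a CCK receptor agonist), both drugs (combination), or saline. The labels also write the second drug as AC710222. They list 2.5 or 10 µg/kg for it and do not say which dose lies behind these libraries. They give neither the doses in the combination, the time to dissection nor the number of mice behind a sample. The regions were the dorsovagal complex (DVC), a hindbrain site that receives vagal signals from the gut, and the mediobasal hypothalamus (MBH). The IP libraries hold RNA from ribosomes bound by an antibody to S6 phosphorylated at serines 240 and 244. The input libraries hold total RNA from a small part of the same clarified homogenate. The labels do not say that the 3 samples of a group came from separate animals, so p-values measure the spread between these samples.

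The mTOR kinase works in a pair of complexes. With the scaffold raptor (Rptor) it forms mTORC1, which senses amino acids, growth factors and energy, and with rictor (Rictor) it forms mTORC2, which phosphorylates Akt. The tuberous sclerosis proteins Tsc1 and Tsc2 form a complex that switches off the small GTPase Rheb, and Rheb in its GTP-bound form activates mTORC1. Active mTORC1 phosphorylates the S6 kinases S6K1 (Rps6kb1) and S6K2 (Rps6kb2), which phosphorylate S6, and the 4E-BP proteins (Eif4ebp1, Eif4ebp2), which release the cap-binding factor eIF4E. In neurons, S6 phosphorylation rises with activity, which is why it is used to mark them. The files measure mRNA and hold no measure of kinase activity.

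The coding sequence around the antibody's site in S6 and the sites through which mTORC1 acts on its substrates are shown because they tie the 10 genes to the pull-down. All are from the GENCODE M21 transcripts on GRCm38, written 5′ to 3′ on the coding strand. In Rps6 (chr4:86854705-86854764, minus strand, codons 230 to 249 of 249) the capitals mark the serine codons 240 and 244.
Rps6: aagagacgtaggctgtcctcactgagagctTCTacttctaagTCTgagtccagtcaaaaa
In the hydrophobic motif of the S6 kinases the capitals mark the threonine codon that mTORC1 phosphorylates. The stretches are codons 408 to 416 of Rps6kb1 (chr11:86504358-86506796, minus strand, across an intron) and 384 to 392 of Rps6kb2 (chr19:4157574-4157687, minus strand, across an intron), and they differ at 4 of 27 bases.
Rps6kb1: tttctgggttttACAtatgtggctcca
Rps6kb2: ttcctgggctttACAtatgtggcacct
The last 30 coding bases of the 4E-BP genes hold the TOS motif, in capitals, by which raptor binds them (Eif4ebp1 at chr8:27273502-27275108 on the plus strand, Eif4ebp2 at chr10:61433800-61434918 on the minus strand, each across an intron). They differ at 6 of 30 bases, and at 1 of the 15 bases of the motif.
Eif4ebp1: ggtgaagagtcacaaTTTGAGATGGACATT
Eif4ebp2: ggggatgaggctcagTTTGAGATGGACATC
The longest identical coding stretch was 14 bases within each of these gene pairs and 9 bases between Rheb and its relative Rhebl1, so reads could be told apart between them outside such short stretches.

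On GRCm38 the kinase gene Mtor lies at chr4:148448611-148557683, Rptor at chr11:119602905-119899576 and Rictor at chr15:6708379-6800401, all on the plus strand. Tsc1 lies at chr2:28641228-28691167 (plus), Tsc2 at chr17:24595816-24632630 (minus) and Rheb at chr5:24802823-24842624 (minus). Rps6kb1 lies at chr11:86498871-86544805 and Rps6kb2 at chr19:4153991-4163354, both on the minus strand. Eif4ebp1 lies at chr8:27260329-27276674 (plus) and Eif4ebp2 at chr10:61428491-61452661 (minus). Exons of 4 of the 10 genes overlap exons of opposite-strand genes, and since the libraries keep no strand, reads from such stretches cannot be told apart. The overlap was longest for Rps6kb2, which shares 1224 of its 5167 exonic bases with Ptprcap and 45 with Coro1b. Tsc2 shares 693 bases with Pkd1, Rps6kb1 shares 155 with Rnft1, and Rptor shares 84 with Rptoros.

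Total counts ranged from 102116189 to 191252522 in DVC IP, from 29492622 to 95079227 in DVC input, from 21782798 to 73940674 in MBH IP and from 36542586 to 80084056 in MBH input. The IP libraries were less complete than the inputs: 1 of 12 DVC IP libraries (AC3174 replicate 3) and 5 of 12 MBH IP libraries (AC3174 replicates 2 and 3, AC170222 replicates 2 and 3, saline replicate 3) detected fewer than 12000 genes, and no input library did. The regions carried their markers. The hindbrain gene Hoxb5 stood at 86.7 to 214 CPM (read counts scaled to the library's total, with TMM factors) in DVC inputs and at 0 in all 12 MBH inputs, and the hypothalamic gene Pomc stood at 2.41 to 6.1 CPM in DVC inputs and 45.9 to 99.2 CPM in MBH inputs. All 10 genes passed the filter on low counts in every comparison below. Among the IP libraries, 10 of 120 of their values in DVC (8.33%) and 18 of 120 in MBH (15%) were at 0 counts. Among the inputs, 0 of 120 values in DVC and 2 of 120 in MBH (1.67%) were. For genes that reached 10 CPM in the inputs, the mean share at 0 came to 7.01% for DVC IP and 11% for MBH IP, against 0.0828% and 0.932% for the inputs of the same regions. A count of 0 allows up to 3 counts, which is 0.0427 to 0.101 CPM in MBH IP libraries and 0.0167 to 0.0307 CPM in DVC IP libraries, counting error only.

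Among the 10 genes, Rheb was by far the most abundant transcript per length in every set of libraries, and the 4E-BP genes were at the low end. Levels between genes are given as CPM per kb of exon, as mean ± SD over 12 libraries. Rheb averaged 38.9 ± 4.38 CPM per kb in DVC input and 52 ± 6.62 CPM per kb in MBH input. In DVC input it was followed by Tsc2 (10.2 ± 4.25), Rps6kb1 (8.33 ± 1.46), Mtor (5.25 ± 1.55), Rictor (4.56 ± 1.39), Rptor (3.72 ± 1.4), Rps6kb2 (3.24 ± 1.42), Tsc1 (2.88 ± 1.15), Eif4ebp2 (1.26 ± 0.72) and Eif4ebp1 (1.07 ± 0.577), all levels in CPM per kb. Between neighbours in that order, Rheb stood above Tsc2 and Rps6kb1 above Mtor by more than their SDs, and the other neighbours did not differ beyond their spread. In MBH input the order was Rheb, Tsc2 (8.97 ± 2.96), Mtor (6.27 ± 2.64), Rps6kb1 (5.56 ± 1.62), Rictor (4.98 ± 1.56), Rptor (3.51 ± 1.78), Tsc1 (2.15 ± 1.58), Eif4ebp1 (2.07 ± 2.22), Rps6kb2 (1.65 ± 0.668) and Eif4ebp2 (0.75 ± 0.628), again levels in CPM per kb. Only the step below Rheb exceeded the SDs of the neighbours there.

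The same first place went to Rheb among the IP libraries, at 40.3 ± 17.1 CPM per kb in DVC IP and 47.3 ± 9.54 CPM per kb in MBH IP. Eif4ebp2 was last in both, at 0.233 ± 0.351 CPM per kb in DVC IP and 0.101 ± 0.129 CPM per kb in MBH IP. Rheb also varied least among libraries: the SD was 11.3% of its mean in DVC input and 12.7% in MBH input. For Eif4ebp1 the SD was 54% of the mean in DVC input and 107% in MBH input, so the low genes carry wide errors. In the IP libraries that share ran between 42.5% (Rheb) and 150% (Eif4ebp2) in DVC, and between 20.1% (Rheb) and 181% (Mtor) in MBH.

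**Figure D1:**
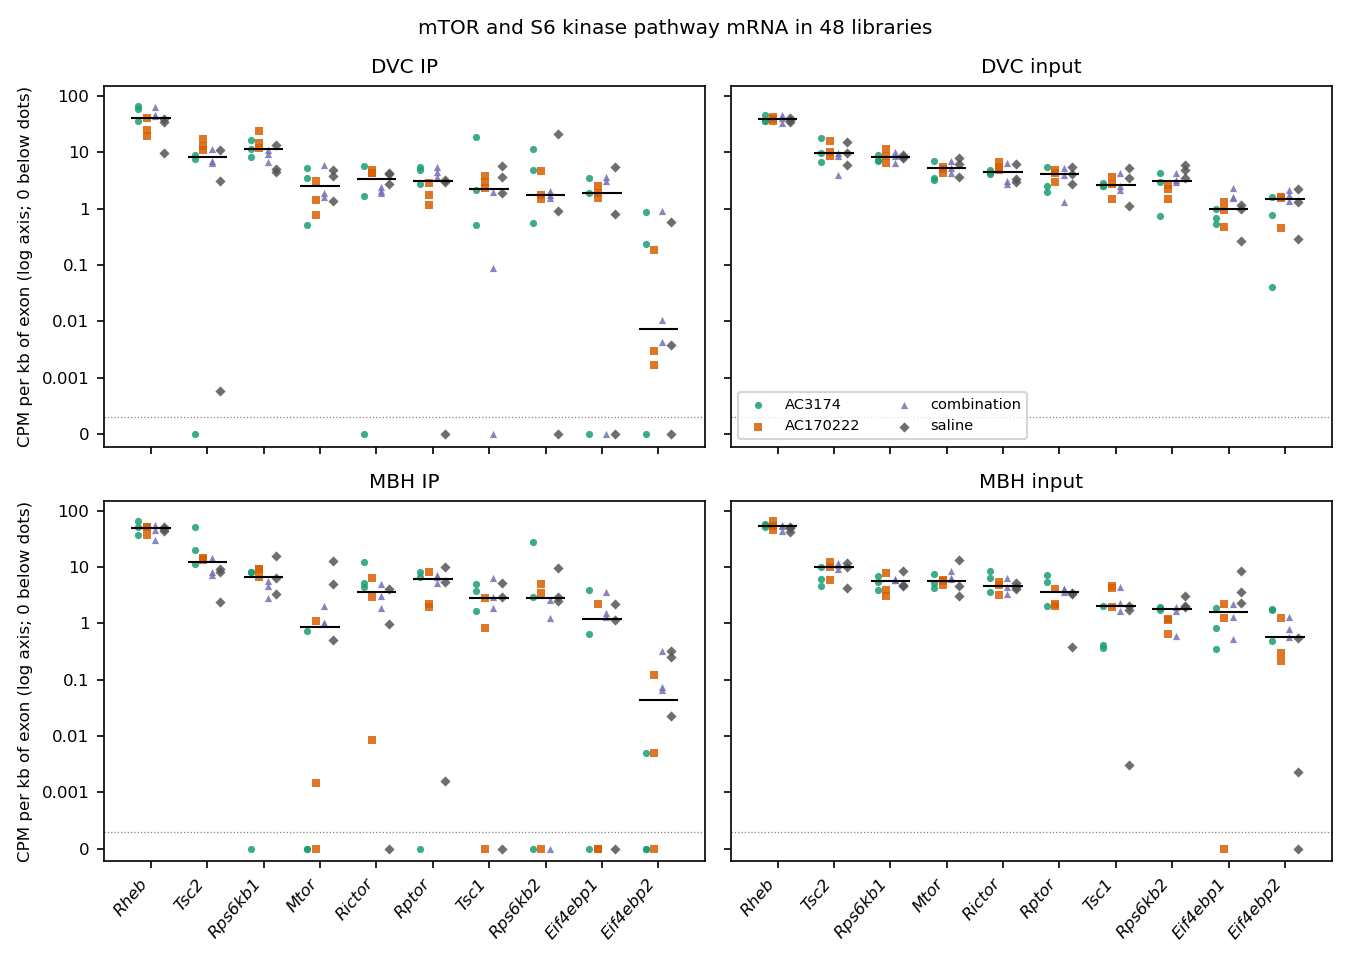
Level of each gene in CPM per kb of exon (log axis, with values of 0 drawn below the dotted line) in the 12 libraries of each region and RNA kind, with 1 point per library, shape and colour for the treatment, and a black line at the median. The median of Rheb lies above those of all other genes in each panel. In the IP panels single points of other genes lie above the lowest Rheb points. Examples are Rps6kb1 in DVC IP (up to 24, Rheb from 9.88) and Tsc2 in MBH IP (up to 50.8, Rheb from 29.9). Values at 0 lie mostly in the IP panels, where Eif4ebp2 and MBH Mtor have the lowest medians.

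Total RNA of 3 of the 10 genes differed between the regions: both S6 kinase genes were higher in the DVC, and Rheb was lower there. Rps6kb2 (S6K2) had the largest difference of the 3. Over all 18576 genes tested, 21.9% differed (adjusted p under 0.05), so 3 of 10 is near the background. At an unadjusted p under 0.05 the same 3 of 10 passed, against 33.2% of all genes. Each of the 3 kept its direction and its call under every alternative setting and without any 1 of the 24 input libraries. In bulk tissue, fewer cells of a type and less RNA per cell cannot be told apart. The regions were separate preparations as far as the labels say, so region and preparation cannot be told apart. This also holds for the other comparisons of the regions below.

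Rheb, the GTPase that activates mTORC1, ran between 251 and 357 CPM with a median of 295 in DVC inputs, against 320 to 508 CPM with a median of 406 in MBH inputs. The ranges overlapped, with 3 DVC libraries above the lowest MBH library, the saline replicate 2. Its mean level was 300 ± 33.8 CPM in DVC and 401 ± 51.1 CPM in MBH (SD, n = 12 each), a log2 difference of -0.40 ± 0.08 (SE, adjusted p = 0.001005).

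Rps6kb1, which encodes the S6 kinase S6K1, ran between 55.1 and 98.8 CPM with a median of 71.9 in DVC inputs, against 26.4 to 72.6 CPM with a median of 48.9 in MBH inputs. Most DVC libraries were higher than most MBH libraries, though the ranges overlapped. The means were 72.2 ± 12.6 CPM in DVC and 48.1 ± 14 CPM in MBH, a log2 difference of 0.60 ± 0.16 (adjusted p = 0.0119).

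Rps6kb2, the second S6 kinase gene, ran between 3.8 and 30.3 CPM with a median of 15.9 in DVC inputs, against 3.04 to 15.5 CPM with a median of 9.37 in MBH inputs. The median DVC library lay above the highest MBH library, but the lowest DVC library, AC3174 replicate 1, lay near the lowest in MBH. The means were 16.7 ± 7.35 CPM in DVC and 8.51 ± 3.45 CPM in MBH, a log2 difference of 1.00 ± 0.28 (adjusted p = 0.0154). Reads from the bases it shares with Ptprcap on the other strand may have been added to this gene's count or left out of it. The counting settings are not given, and the part of these reads was not tested.

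**Figure D2:**
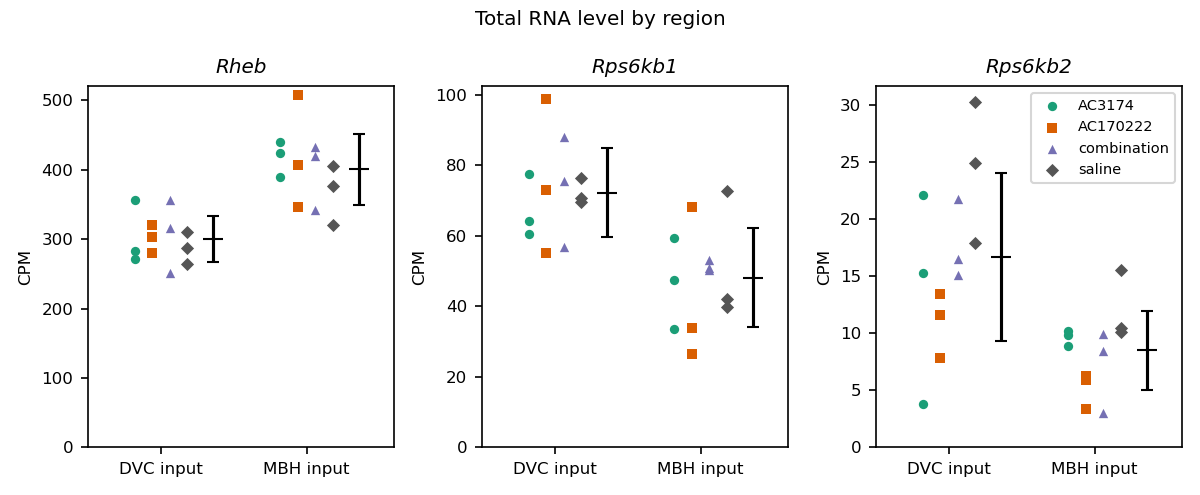
CPM of Rheb, Rps6kb1 and Rps6kb2 in the 12 DVC and 12 MBH input libraries, with 1 point per library, shape and colour for the treatment, and the mean ± SD beside them. Rheb lies lower in DVC (mean 300 against 401 CPM) and both S6 kinase genes lie higher (72.2 against 48.1 and 16.7 against 8.51 CPM).

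The other 7 genes did not pass the test between the regions. Mtor averaged 53.1 ± 15.6 CPM in DVC input and 63.4 ± 26.7 CPM in MBH input, a log2 difference of -0.24 ± 0.22 (adjusted p = 0.516). The complex scaffolds had log2 differences of 0.16 ± 0.32 (Rptor) and -0.11 ± 0.18 (Rictor). The brakes on Rheb had log2 differences of 0.65 ± 0.52 (Tsc1) and 0.19 ± 0.23 (Tsc2). Of the translation repressors, Eif4ebp1 had -0.72 ± 0.63 and Eif4ebp2 had 1.04 ± 0.76 on the log2 scale. Eif4ebp2 became a call only without the MBH input saline replicate 3 library (log2 difference 2.76, adjusted p = 0.00312).

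Markers of cell types moved with the region as well. Summed neuron markers (Snap25, Syt1, Rbfox3, Stmn2, Nefl and Tubb3) had a median of 10300 CPM in DVC inputs and 4820 CPM in MBH inputs, with ranges of 9500 to 11200 and 4270 to 6030 CPM. In the same order the medians were 900 and 337 CPM for astrocyte markers, and 58.1 and 26.9 CPM for microglia markers. Summed oligodendrocyte markers (5 genes) had a median of 5310 CPM in DVC inputs and 1750 CPM in MBH inputs, and their ranges of 4190 to 6570 CPM in DVC and 1190 to 2730 CPM in MBH did not overlap. Endothelial markers had medians of 6.94 CPM in DVC and 3.63 CPM in MBH, and red blood cell markers 78.4 CPM in DVC and 32.1 CPM in MBH. Nuclear-retained RNAs had medians of 4080 CPM in DVC and 2120 CPM in MBH. The part of cell composition in the differences of Rheb and the S6 kinase genes was not tested.

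Ratios within pairs of related genes did not differ between the regions. The log2 ratio of Rps6kb1 to Rps6kb2, taken per kb, was 1.48 ± 0.715 in DVC inputs and 1.76 ± 0.767 in MBH inputs, and S6K1 mRNA exceeded S6K2 mRNA in 12 of 12 libraries of each region. The difference was -0.28 (permutation test, 2-sided, p = 0.367, adjusted p = 0.388 over 3 ratios). The log2 ratio of Rptor to Rictor, the scaffolds of mTORC1 and mTORC2, was -0.34 ± 0.753 in DVC and -0.67 ± 0.954 in MBH, a difference of 0.33 (permutation p = 0.388, adjusted p = 0.388). The log2 ratio of Eif4ebp2 to Eif4ebp1 was 0.06 ± 1.36 in DVC and -1.19 ± 2.68 in MBH, a difference of 1.25 (permutation p = 0.166, adjusted p = 0.388). A p that misses the threshold does not show that the ratios were alike.

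RNA on phospho-S6 ribosomes was next set against total RNA. In the DVC, 0 of the 10 genes passed edgeR's test between IP and input at an adjusted p under 0.05, where 20.4% of 18465 genes did (6.8% higher and 13.6% lower in the IP). At an unadjusted p under 0.05 there were 2 of 10, against 31.7% of all genes. The 2 were Mtor and Eif4ebp2, both lower in the IP. Other tools called more: edgeR with RLE size factors called 1 (Mtor; 19.3% of all genes), DESeq2 called 2 (Mtor and Eif4ebp2; 33% of all genes) and limma-voom called 4 (Mtor, Rictor, Tsc2 and Eif4ebp2; 34.7% of all genes), all lower in the IP. The median log2 difference of the 10 genes was -0.31, beside -0.37 over all genes tested.

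Mtor, the kinase itself, ran between 5.13 and 59.1 CPM with a median of 25.4 in DVC IP libraries, against 32.6 to 80.8 CPM with a median of 53 in DVC inputs. The IP library was lower than the input of the same sample number in 9 of 12 samples, and the ranges overlapped. Same-numbered libraries did not deviate together, so this count and the like counts below are descriptions only. The means were 28.7 ± 18.4 CPM in IP and 53.1 ± 15.6 CPM in input (SD, n = 12 each), a log2 difference of -1.01 ± 0.37 (adjusted p = 0.0608). RLE size factors gave -1.12 (adjusted p = 0.0404), DESeq2 gave -1.12 (adjusted p = 0.0061) and limma-voom gave -1.26 (adjusted p = 0.0212), while leaving out 1 sample in turn gave adjusted p-values between 0.0543 and 0.197.

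Eif4ebp2, a 4E-BP that restrains cap-dependent translation in neurons, ran between 0 and 5.29 CPM with a median of 0.0427 in DVC IP, against 0.239 to 13 CPM with a median of 8.53 in DVC input. It was at 0 in 2 of the 12 IP libraries and in no input library, and it was lower in the IP in 10 of 12 samples. The means were 1.35 ± 2.03 CPM in IP and 7.3 ± 4.16 CPM in input, a log2 difference of -2.75 ± 1.23 (adjusted p = 0.128). Without DVC saline replicate 2, where the IP library exceeded its input, the difference was -4.39 (adjusted p = 0.0325).

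The remaining genes had smaller differences or wider errors in the DVC. The scaffolds had log2 differences of -0.43 ± 0.61 (Rptor) and -0.66 ± 0.58 (Rictor) between IP and input. The upstream brakes had -0.19 ± 0.70 (Tsc1) and -0.54 ± 0.79 (Tsc2), and Rheb had -0.11 ± 0.18. The S6 kinases, which make the mark used for the pull-down, had 0.29 ± 0.20 (Rps6kb1) and 0.19 ± 0.75 (Rps6kb2), and Eif4ebp1 had 0.94 ± 1.04. With a mean of 98.7 ± 46.7 CPM in DVC IP and 72.2 ± 12.6 CPM in DVC input, Rps6kb1 did not pass the test (adjusted p = 0.361).

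In the MBH, 0 of the 10 genes passed edgeR's test, where 0.452% of 17461 genes did, so hardly any gene was called there. At an unadjusted p under 0.05 there were 2 of 10, again Mtor and Eif4ebp2, against 11.3% of all genes. DESeq2 called 2 (Mtor and Eif4ebp2; 10.6% of all genes) and limma-voom called 1 (Mtor; 2.82% of all genes), each lower in the IP. The median log2 difference of the 10 genes was 0.01, beside -0.28 over all genes tested.

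In MBH IP, Mtor had 7.4, 0 and 0 CPM after AC3174, 11, 0 and 0.0146 CPM after AC170222, 10.4, 20.8 and 10.4 CPM after the combination, and 5.13, 50.4 and 128 CPM after saline. In MBH input it had 75.8, 42.2 and 52 CPM after AC3174, 56.8, 47.9 and 59.6 CPM after AC170222, 64.9, 62.9 and 86.5 CPM after the combination, and 46.5, 31.6 and 134 CPM after saline. All 9 IP libraries from drug-treated mice were below every input library of the region, and the 2 high IP libraries came from saline mice. The IP libraries of each treatment still overlapped with those of saline (5.13 to 128 CPM), and edgeR called Mtor for no drug there. Saline replicate 3, at 128 CPM in IP, also had the highest input value, 134 CPM. The means were 20.3 ± 36.6 CPM in IP and 63.4 ± 26.7 CPM in input, lower in the IP in 11 of 12 samples (log2 difference -2.77 ± 1.02, adjusted p = 0.234).

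The IP libraries in which Mtor was at 0 in the MBH (AC3174 replicates 2 and 3, AC170222 replicate 2) were all among the 5 with fewer than 12000 genes detected. Without those 5 libraries the difference was -2.22 ± 0.49 and passed the test (adjusted p = 0.0316). It also passed without MBH AC3174 replicate 1 (log2 difference -5.21, adjusted p = 0.0185). Eif4ebp2 ran between 0 and 1.89 CPM with a median of 0.255 in MBH IP, against 0 to 10.5 CPM with a median of 3.26 in MBH input. Its means were 0.581 ± 0.746 CPM in IP and 4.34 ± 3.63 CPM in input, lower in the IP in 10 of 12 samples (log2 difference -3.89 ± 1.17, adjusted p = 0.135).

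**Figure D3:**
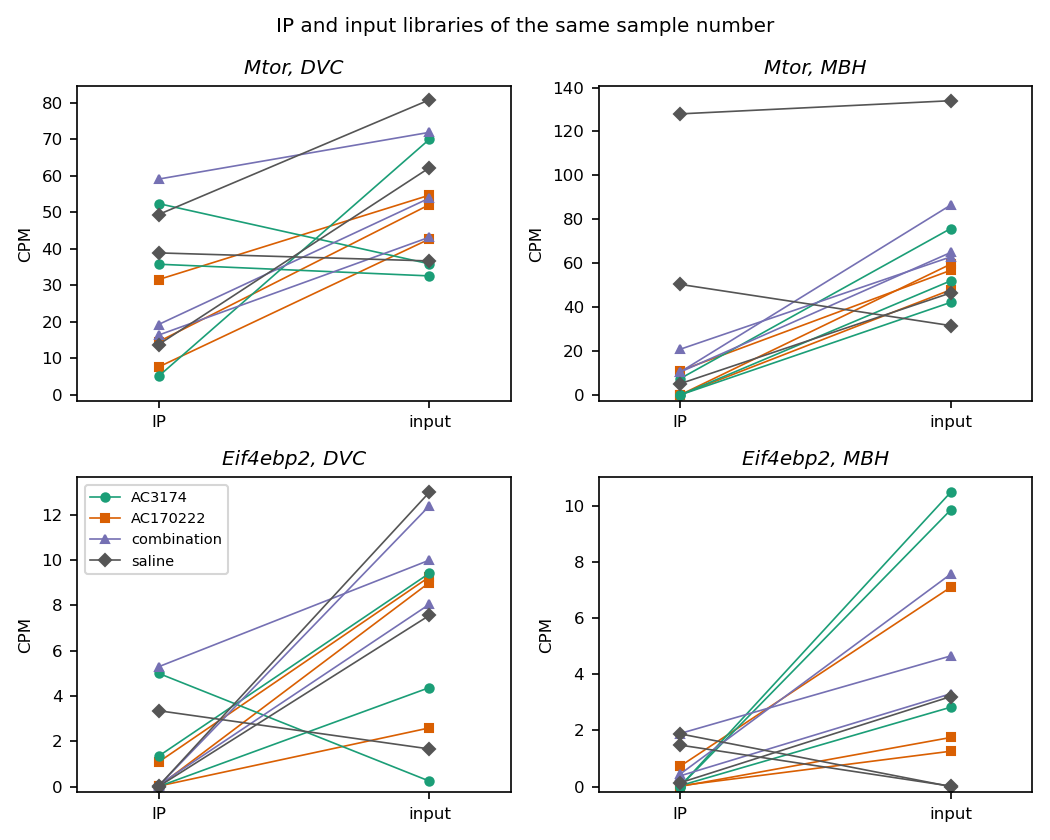
CPM of Mtor (top) and Eif4ebp2 (bottom) in the IP and the input library of each sample number, joined by lines, in DVC (left) and MBH (right), with colour and shape for the treatment. Mtor is lower in the IP in 9 of 12 DVC and 11 of 12 MBH samples, and Eif4ebp2 in 10 of 12 samples of each region. Same-numbered libraries did not deviate together, so the lines are a description only.

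For the other 8 genes in the MBH the log2 differences between IP and input ran from -0.57 ± 0.73 (Rictor) to 1.23 ± 1.04 (Rps6kb2). Rheb had -0.17 ± 0.13, the smallest error among the 10. Rps6kb1 had 0.18 ± 0.60 and Tsc2 had 0.48 ± 0.30. Rptor (0.57 ± 0.81), Tsc1 (0.44 ± 0.96) and Eif4ebp1 (-0.40 ± 1.21) had SEs larger than their differences.

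Whether the IP-to-input difference itself depended on the region was tested as an interaction over 19416 genes, of which 4.39% passed (2.33% with a higher difference in DVC). Of the 10 genes, 0 passed by edgeR, and 0 at an unadjusted p under 0.05, where 13.4% of all genes did. DESeq2 called 0 and limma-voom 1 (Mtor), and the shares of all genes with these tools are not given here. Mtor had the largest estimate, 1.83 ± 1.05 on the log2 scale for DVC minus MBH (adjusted p = 0.53). Limma-voom gave 3.96 (adjusted p = 0.00971). Leaving out MBH AC3174 replicate 1 gave 4.30 (adjusted p = 0.0105), and leaving out MBH AC170222 replicate 1 gave 3.84 (adjusted p = 0.0206).

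Marker sums of several transcript classes differed between IP and input beside these genes. Summed neuron markers had medians of 23400 CPM in DVC IP and 10300 CPM in DVC input, and 5120 CPM in MBH IP and 4820 CPM in MBH input, where the ranges overlapped. Astrocyte markers had medians of 1790 CPM in DVC IP and 900 CPM in DVC input, and 665 CPM in MBH IP and 337 CPM in MBH input. Oligodendrocyte markers (5 genes) had 1850 CPM in DVC IP and 5310 CPM in DVC input, and 1890 CPM in MBH IP and 1750 CPM in MBH input. Microglia markers had 7.91 CPM in DVC IP and 58.1 CPM in DVC input, and 17.1 CPM in MBH IP and 26.9 CPM in MBH input. Endothelial markers had 0.0507 CPM in DVC IP and 6.94 CPM in DVC input, and 1.12 CPM in MBH IP and 3.63 CPM in MBH input. Red blood cell markers had 223 CPM in DVC IP and 78.4 CPM in DVC input, and 162 CPM in MBH IP and 32.1 CPM in MBH input. In the DVC, oligodendrocyte, microglia and endothelial medians were thus lower in the IP, and neuron, astrocyte and red blood cell medians higher. In the MBH the microglia and endothelial medians were lower in the IP and the oligodendrocyte median was not. The mean levels of Mtor and Eif4ebp2 were lower in the IP in both regions and did not pass the test. Nuclear-retained RNAs had medians of 664 CPM in DVC IP and 4080 CPM in DVC input, and 401 CPM in MBH IP and 2120 CPM in MBH input. Mitochondrially encoded transcripts, which are translated on mitochondrial ribosomes, had medians of 104 CPM in DVC IP and 3490 CPM in DVC input, and 83.8 CPM in MBH IP and 1810 CPM in MBH input. Their part in the values of Mtor and Eif4ebp2 was not tested.

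The drugs were compared with saline in each region and RNA kind, 12 comparisons in all. By edgeR, 0 of the 10 genes differed from saline in any of them, and 0% of all genes tested did. At an unadjusted p under 0.05 there were 2 of 10 for AC3174 in MBH IP (Tsc2 and Eif4ebp2), against 1.98% of all genes, and 0 of 10 in the other 11 comparisons. All genes at that threshold came to 6.58%, 5.25% and 5.44% in DVC IP for AC3174, AC170222 and the combination, and to 4.81%, 4.18% and 5.38% in DVC input. They came to 1.56% and 0.86% in MBH IP for AC170222 and the combination, and to 8.59%, 6.57% and 8.57% in MBH input for the 3 treatments. DESeq2 and limma-voom also called 0 of the 10 genes in each. DESeq2 called between 1.07% and 7.23% of all genes over the 12 comparisons, and limma-voom between 0% and 0.126%. The values are therefore given below as a description, for genes whose 3 drug libraries lay wholly above or below the 3 saline libraries. The titles carry bracketed codes, and dividing the libraries by the number in the code gives 3 library sets. Saline and AC170222 fall mostly in other sets than AC3174 and the combination. The labels do not say what the codes mark, and 2 MBH IP combination libraries break their pattern, so the sets are an inference and were used only as an alternative covariate.

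In DVC IP, 3 of the 10 genes did not overlap with saline after the combination, where 11.3% of 15815 genes did not overlap. Rheb had 345, 354 and 489 CPM after the combination, against 267, 306 and 76.3 CPM after saline (log2 difference 0.91 ± 0.48, adjusted p = 0.817). Rptor had 48.7, 72.9 and 61.2 CPM after the combination, against 40.1, 42.9 and 0 CPM after saline (1.18 ± 1.65, adjusted p = 1). Rictor had 41, 34.4 and 31.9 CPM after the combination, against 47, 68.6 and 72.7 CPM after saline (-0.80 ± 1.61, adjusted p = 1). Rheb and the mTORC1 scaffold were thus above saline and the mTORC2 scaffold below it, with saline replicate 3 far below the other saline libraries for Rheb and Rptor. With the library set as a covariate the Rictor difference turned to 0.38. After AC3174 (8.18% of all genes) and AC170222 (9.71%) 0 of the 10 genes were clear of saline in DVC IP.

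In DVC input, Rps6kb2 had 13.4, 11.6 and 7.82 CPM after AC170222, against 30.3, 24.9 and 17.9 CPM after saline (log2 difference -1.13 ± 0.54, adjusted p = 1). It was the 1 gene of 10 clear of saline there, where 9.26% of 17477 genes were. Eif4ebp1 had 3.37, 5.12 and 3.59 CPM after the combination, against 2.14, 2.53 and 0.593 CPM after saline (1.24 ± 0.90, adjusted p = 0.997). It was again 1 of 10, against 9.18% of all genes. After AC3174 0 of the 10 genes were clear of saline, against 9.41%.

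In MBH IP, 3 of 10 genes were clear of saline after AC3174, where 6.56% of 14766 genes were. Tsc2, the GTPase-activating subunit that switches off Rheb, had 110, 194 and 489 CPM after AC3174 and 136, 142 and 126 CPM after AC170222, against 79.7, 23.4 and 89.7 CPM after saline. The log2 differences were 1.98 ± 0.73 for AC3174 and 1.07 ± 0.71 for AC170222 (adjusted p = 1 for each). After the combination it had 79.4, 136 and 68.4 CPM, which overlapped with saline. Rictor had 75.9, 88.9 and 211 CPM after AC3174, against 68.7, 16.5 and 0 CPM after saline (2.06 ± 2.07, adjusted p = 1). Eif4ebp2 had 0.0293, 0 and 0 CPM after AC3174, against 1.48, 1.88 and 0.132 CPM after saline (adjusted p = 1). AC3174 replicate 3, which gave the highest Tsc2 and Rictor values, detected 6285 genes, the fewest of all libraries. After AC170222 Tsc2 was the 1 gene of 10 clear of saline (6.01% of all genes), and after the combination 0 of 10 were (7.46%).

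In MBH input, Eif4ebp1 was below saline after each treatment. It had 0.776, 4.09 and 1.81 CPM after AC3174, 0, 2.76 and 4.92 CPM after AC170222 and 4.95, 2.81 and 1.16 CPM after the combination, against 5.08, 18.3 and 7.81 CPM after saline. The log2 differences were -2.22 ± 1.68, -2.03 ± 1.66 and -1.78 ± 1.65 in the same order, with adjusted p-values of 0.765, 0.914 and 0.907, and all 3 rest on the same 3 saline libraries. Rps6kb2 had 5.88, 3.37 and 6.25 CPM after AC170222 and 9.97, 8.44 and 3.04 CPM after the combination, against 10.1, 15.5 and 10.5 CPM after saline. Its log2 differences were -1.23 ± 0.70 for AC170222 (adjusted p = 0.746) and -0.72 ± 0.69 for the combination (adjusted p = 0.913).

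After the combination in MBH input, Rptor had 49.2, 56.1 and 54.5 CPM, against 46.5, 5.09 and 44 CPM after saline (log2 difference 0.77 ± 0.69, adjusted p = 0.895). Eif4ebp2 had 7.58, 3.31 and 4.66 CPM after the combination, against 0.0134, 0 and 3.21 CPM after saline (2.29 ± 1.91, adjusted p = 0.866). Single saline libraries weigh heavily here: Rptor was at 0.27 without saline replicate 2, which detected 12853 genes, the fewest of the inputs, and Eif4ebp2 was at 9.19 without saline replicate 3, neither passing the test. Saline replicates 1 and 2 held 1 and 0 counts of Eif4ebp2, so the size of 9.19 is no bound. With Rptor and Eif4ebp2, 4 of 10 genes were clear of saline after the combination, where 18.2% of 16622 genes were. The counts were 1 of 10 after AC3174 (10.4% of all genes) and 2 of 10 after AC170222 (8.92%).

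**Figure D4:**
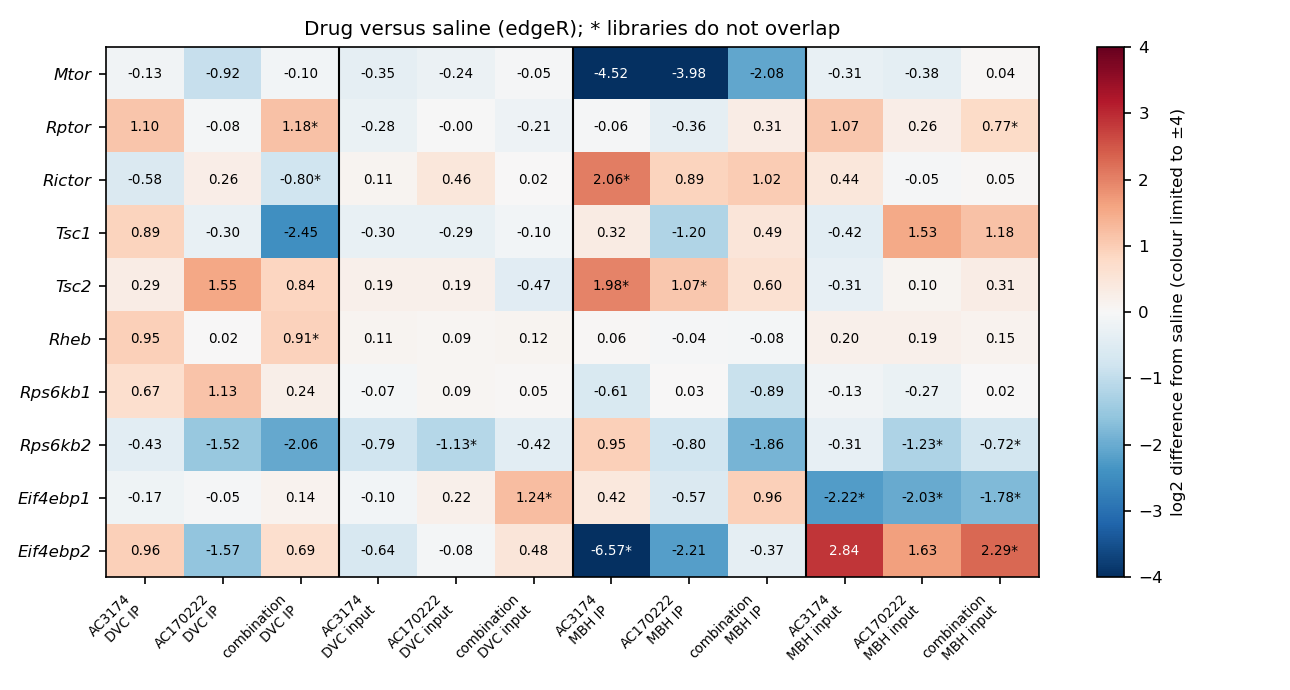
Log2 difference from saline (edgeR) of each of the 10 genes for AC3174, AC170222 and the combination in the 4 sets of libraries, with colour for the sign and size and an asterisk where the 3 drug and 3 saline libraries do not overlap in CPM. No cell passed an adjusted p under 0.05, and the largest differences, such as -6.57 for Eif4ebp2, lie in MBH IP. That Eif4ebp2 value rests on AC3174 libraries with 1, 0 and 0 counts, so its size is no bound.

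Setting the combination against each drug alone, and against the sum of the separate effects, also called 0 of the 10 genes by edgeR, by DESeq2 and by limma-voom in all 4 sets, where 0% of all genes passed edgeR. At an unadjusted p under 0.05, Eif4ebp2 differed between the combination and AC3174 in MBH IP (log2 difference 6.20 ± 2.65, adjusted p = 1), against 2.09% of all genes. It had 0.437, 0.378 and 1.89 CPM after the combination, against 0.0293, 0 and 0 CPM after AC3174. Eif4ebp2 (8.41 ± 3.41) and Tsc2 (-2.45 ± 1.01) departed from additivity at an unadjusted p under 0.05 in MBH IP, against 2.55% of all genes. Neither held after adjustment (adjusted p = 1 for each). Eif4ebp2 had 1, 0 and 0 counts in the AC3174 libraries, so the sizes of its estimates depend on the prior count and are no bounds. The estimates of both genes share the AC3174 and saline libraries with the comparisons above.

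Whether a drug shifted the difference between IP and input was tested as an interaction, and edgeR called 0 of the 10 genes for any drug in either region. In the DVC, 0.0379% of all genes passed for AC3174, 0.0271% for AC170222 and 0.0379% for the combination, every one of them higher, and in the MBH 0% did. At an unadjusted p under 0.05, 0 of 10 passed for each treatment in the DVC, against 10.4%, 9.02% and 9.55% of all genes. In the MBH, 2 of 10 passed for AC3174 (5.49% of all genes), Tsc2 at 2.34 ± 0.85 and Eif4ebp2 at -9.55 ± 3.46 on the log2 scale (adjusted p = 0.801 for each). With 1, 0 and 0 counts in the AC3174 IP libraries, the size of the Eif4ebp2 estimate is no bound. For AC170222 (5.28%) and the combination (4.01%) 0 of 10 did. DESeq2 called Eif4ebp2 for AC3174 (-9.79, adjusted p = 0.00671), in a comparison where it called 6.04% of all genes. Leaving out MBH AC3174 replicate 1 called Mtor in that comparison (-14.13, adjusted p = 0.0466), with 0 counts in the remaining AC3174 IP libraries, so the size of that estimate depends on the prior count and is no bound.

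A list of 83 further genes of the pathway, of which 82 passed the filter on low counts in the comparisons of IP with input and between the regions, was read for context. In the DVC, 9 of the 82 were higher and 8 lower in the IP than in the input, a share near the 20.4% of all genes. Of those that were higher, Rragb, a Rag GTPase that brings mTORC1 to the lysosome, averaged 751 ± 161 CPM in IP and 329 ± 35.2 CPM in input (log2 difference 1.10 ± 0.11, adjusted p = 1.1e-05). Some of the Ragulator subunits, which anchor the Rag GTPases, were also higher: Lamtor5 by 0.85 ± 0.12, Lamtor3 by 0.92 ± 0.14 and Lamtor2 by 0.54 ± 0.13 on the log2 scale. Lamtor4 (68.1 ± 27.8 CPM in IP, 36.6 ± 10.2 CPM in input) and Rraga (277 ± 64.8 and 182 ± 18.5 CPM) also had higher IP means. Lamtor1 was nearly level (114 ± 29.4 and 117 ± 20.9 CPM). Rragc (132 ± 110 and 204 ± 34.9 CPM) and Rragd (77.9 ± 62.6 and 96.5 ± 20.5 CPM) had lower IP means. Eef2, the elongation factor controlled through S6 kinase, was higher by 0.60 ± 0.11 (not called by limma-voom, adjusted p = 0.13), and Larp1, which binds mRNAs under mTORC1 control, by 1.01 ± 0.21.

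The genes lower in DVC IP included the insulin receptor gene. Insr averaged 2.39 ± 4.73 CPM in IP, with 5 of 12 libraries at 0, and 7.69 ± 6.86 CPM in input (log2 difference -5.69 ± 1.33, adjusted p = 0.00618). That difference averages the 4 treatments on the log scale, where groups near 0 weigh more than in the means. The IP median was 0.00643 CPM, and leaving out 1 sample gave -8.68 to -5.20, so its size is uncertain. Ppp1cc, a catalytic subunit of the phosphatase PP1, averaged 68.6 ± 62.4 CPM in IP and 153 ± 17.9 CPM in input (-1.65 ± 0.18, adjusted p = 1.33e-05). Sgk1, an mTORC2 substrate kinase, averaged 152 ± 90.4 CPM in IP and 421 ± 66.9 CPM in input (-1.63 ± 0.24, adjusted p = 0.00016). Prr5l, a binding partner of rictor (-3.28 ± 0.95), Itfg2, a subunit of the KICSTOR complex (-0.63 ± 0.18), and Fnip2, a partner of folliculin (-4.15 ± 1.22), were also lower. The calls for Prr5l, Itfg2 and Fnip2 were lost without 3, 8 and 5 of the 12 samples in turn. Leaving out 1 sample gave -5.17 to -2.94 for Prr5l and -6.18 to -3.14 for Fnip2. Their means were closer, at 18.1 ± 25.3 CPM in IP and 51.1 ± 17 CPM in input for Prr5l, and 1.82 ± 4.22 and 5.71 ± 4.16 CPM for Fnip2. Rps6 itself did not pass the test, with a mean of 163 ± 53 CPM in IP and 114 ± 21.5 CPM in input (0.41 ± 0.17, adjusted p = 0.0984). With the sample as a block, 11 of the 82 genes were called in the DVC, where 7.59% of all genes were, and the calls for Itfg2 and Fnip2 were lost. In the MBH 0 of the 82 genes passed by edgeR and 12 did at an unadjusted p under 0.05, against 11.3% of all genes. DESeq2 called 8 there (10.6% of all genes) and limma-voom 5 (2.82%).

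Between the regions, 8 of the 82 genes were higher and 15 lower in DVC input than in MBH input, against 21.9% of all genes. Higher in DVC were the mTORC2 effector Sgk1 (log2 difference 1.37 ± 0.13), the autophagy kinase Ulk1 (1.05 ± 0.23), Insr (3.11 ± 0.68), the PI3-kinase subunit Pik3cb (1.38 ± 0.34), Eef2 (0.24 ± 0.07) and the kinase Akt1 (0.62 ± 0.19). Sgk1 averaged 421 ± 66.9 CPM in DVC and 170 ± 60.3 CPM in MBH. Insr averaged 7.69 ± 6.86 CPM in DVC and 3.49 ± 3.87 CPM in MBH, with 2 of 12 MBH libraries at 0, so the size of its difference is uncertain. The Akt1 call was lost without DVC input AC3174 replicate 2 or saline replicate 2 (adjusted p = 0.053 and 0.0511). Lower in DVC were the rapamycin-binding protein Fkbp1a (-0.83 ± 0.07), the translation factors Eif4a1 (-0.63 ± 0.08) and Eif4e (-0.61 ± 0.10), the phosphatase subunit Ppp1ca (-0.59 ± 0.08), the mTOR inhibitor Deptor (-1.02 ± 0.14) and Poldip3, an S6K1 partner (-0.75 ± 0.11). Deptor averaged 59.4 ± 12.9 CPM in DVC and 125 ± 38.6 CPM in MBH. Rps6 was lower in DVC as well, with 114 ± 21.5 CPM in DVC and 160 ± 41.3 CPM in MBH (-0.45 ± 0.13, adjusted p = 0.0187).

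**Figure D5:**
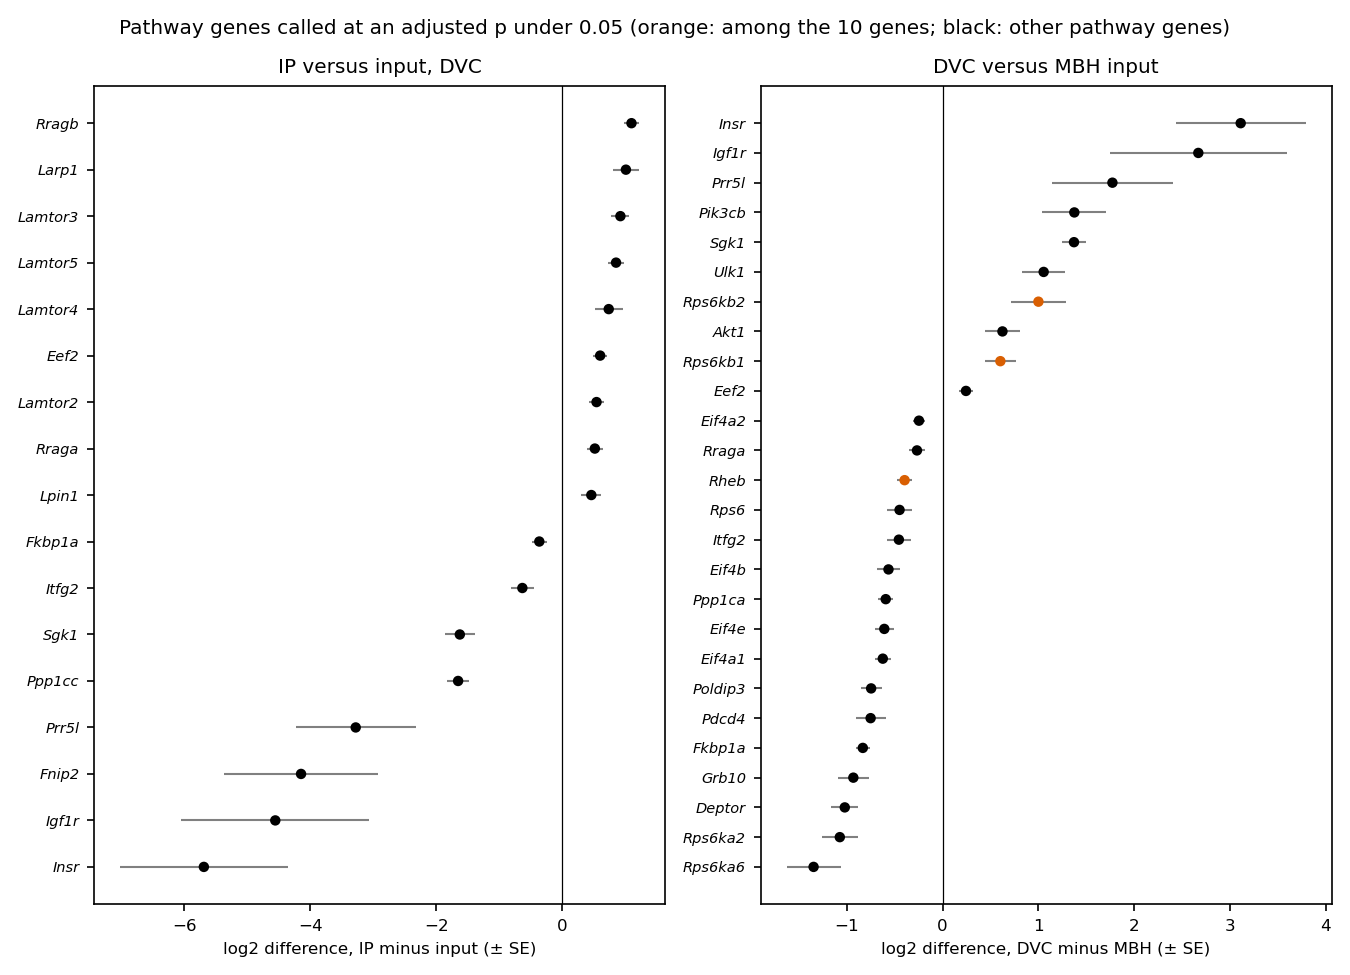
Log2 difference ± SE (edgeR) of every pathway gene called at an adjusted p under 0.05, for IP minus input in the DVC (left) and for DVC minus MBH input (right), with the 10 genes in orange and other pathway genes in black. No orange point appears on the left, and Rps6kb2, Rps6kb1 and Rheb are the orange points on the right.

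Genes whose levels followed Mtor and Rps6kb1 most closely over all 48 libraries were picked by Pearson's r of log2(CPM + 2) among 9672 genes averaging 10 CPM or more. For Mtor they were Smim18 (r = 0.787), Creld1 (0.759) and Atp6ap2 (0.74). For Rps6kb1 they were Epb41l1 (0.866), Sdf4 (0.854) and Ndufaf4 (0.851). These are descriptions over libraries that share region, RNA kind and completeness, and they carry no test.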

How the data were processed

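RNA was measured in 48 libraries made with a SMART-Seq v4 kit and Nextera XT, per the labels' protocols, so the libraries keep no strand and have no molecular identifiers. The authors deposited raw read counts per Ensembl gene. Upstream, the submitters' processing notes name the GRCm38 build, HTSeq 0.6.1p1 and TopHat2 2.0.11, with no annotation or settings. Identifiers were matched to GENCODE M21, and 36429 of 38293 had a match. Counts were tested with edgeR 4.0.16 in R 4.3.3 (quasi-likelihood F test, TMM scaling, filterByExpr, Benjamini-Hochberg adjustment over all genes tested), fitted on the whole table with group means and no block in 34 comparisons. Calls were made at adjusted p-values under 0.05. The SE is the log2 difference divided by the square root of F. IP against input used the 24 libraries of a region, the interaction all 48, the regions the 24 inputs, and the drugs the 12 libraries of each set. CPM used TMM factors over all 48 libraries, and CPM per kb the union of exons. Ratios of gene pairs used CPM per kb + 0.1 and a permutation test with 1e+05 resamples. The scripts were tested on simulated data. Alternatives were RLE size factors, DESeq2 1.42.0, limma-voom (limma 3.58.1), no filter, libraries under 12000 genes left out, a replicate block, the library set as a covariate, coding length, another pseudocount, and leaving out each sample. For named genes, all 10 genes are given, with the range, median and mean where a gene was called between the regions. Every library is given where a gene did not overlap with saline. The 6 further pathway genes with the smallest adjusted p on each side are also given. The genes and lists were chosen with earlier results of these data known. Replicates were compared before averaging, and no pair agreed within sampling noise (lowest chi-square per degree of freedom 130.1 over 48 pairs). Per the labels' protocols, input and IP are parts of one homogenate, and the titles give them a shared sample number without saying that it marks the homogenate. Their deviations from group means did not go together (median r 0.0179 in DVC and -0.00474 in MBH, 0 of 12 over 0.1 in each), so the fit without a block was kept and the block run as an alternative. Across treatments, the same number had r over 0.1 in 3, 4, 14 and 3 of 18 pairs in DVC IP, DVC input, MBH IP and MBH input. One listed marker gene is not reported here, and its list is summed without it, a choice made after seeing the data.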

Additional observations from a re-analysis of the deposited data

Results flagged for a closer look

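Eif4ebp1 libraries lay on opposite sides of saline in the 2 regions after the combination, in total RNA. Over all genes tested, 9.18% did not overlap with saline after the combination in DVC input and 18.2% in MBH input. In DVC input all 3 combination libraries were above all 3 saline libraries (3.37 to 5.12 CPM after the combination, 0.593 to 2.53 CPM after saline), a log2 difference of 1.24. In MBH input all 3 were below (1.16 to 4.95 CPM after the combination, 5.08 to 18.3 CPM after saline), a log2 difference of -1.78. The AC3174 and AC170222 libraries also lay below those saline libraries in MBH input, so that side was not particular to the combination. Neither difference passed edgeR's test (adjusted p = 0.997 in DVC and 0.907 in MBH), and the difference between the regions was not tested. By mean level per length, Eif4ebp1 ranked 8 to 10 among the 10 genes in the 4 sets of libraries.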

How the results depend on the processing

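The region calls of Rheb, Rps6kb1 and Rps6kb2 kept their direction and side of the threshold under every alternative run; the highest adjusted p was 0.0461 (Rps6kb2, limma-voom). With the replicate block by sample number they were -0.40, 0.64 and 1.00 on the log2 scale. The number of the 10 genes called between IP and input, 0 in each region with edgeR, moved to 1 with RLE size factors, 2 with DESeq2 and 4 with limma-voom in DVC, and to 2 with DESeq2, 1 with limma-voom and 1 without libraries under 12000 genes in MBH; leaving out 1 sample gave 0 to 1 in each region. The change of the ratio with AC3174 in MBH gave 1 with DESeq2 and 0 to 1 with 1 sample left out, and the interaction with region gave 1 with limma-voom and 0 to 1 with 1 sample left out. With the replicate block of IP and input by sample number, 0 of the 10 genes were called in either region (Mtor -1.22, adjusted p = 0.111 in DVC, and -6.06, adjusted p = 0.45 in MBH), and calls among the further pathway genes in DVC went to 11. Same-numbered samples did not deviate together, although the protocol draws input and IP from one homogenate, so both fits are given. All genes called between IP and input were 3776 with edgeR, 6091 with DESeq2, 6412 with limma-voom and 1401 with the block in DVC, and 79, 1846, 493 and 3 in the same order in MBH.

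Directions reversed for values that had not passed the test. For IP against input in DVC, Rps6kb2 was -1.14 with limma-voom and -0.86 with the block, and Eif4ebp1 was -1.31 and -0.11. In MBH, limma-voom gave Rptor -1.01, Tsc1 -0.59, Rps6kb1 -0.59 and Rps6kb2 -1.38, and the block gave Rps6kb1 -0.094. Between regions limma-voom gave Rptor -0.10. Rictor after the combination in DVC IP was 0.38 with the library set as a covariate. Leaving out 1 sample gave ranges of -1.09 to 0.14 for Tsc1, -0.12 to 0.067 for Rheb and -0.88 to 0.44 for Rps6kb2 between IP and input in DVC, and -0.037 to 0.36 for Rps6kb1 in MBH. RLE scaling moved the median log2 difference of all genes to -0.47 in DVC (TMM -0.37) and -0.17 in MBH (TMM -0.28). The cause of these shifts was not tested. Depth limits the low genes: 3 counts were 0.0427 to 0.101 CPM in MBH IP, near the Eif4ebp2 values there.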
